A study of Mus musculus with 21 samples.

Results

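The 9 genes described here encode aldehyde dehydrogenases: Aldh1a1, Aldh1a2, Aldh1a3, Aldh1a7, Aldh1b1, Aldh2, Aldh3a1, Aldh3a2 and Aldh3b1. They were taken by name from a table of 55536 genes, in which 12 further aldehyde dehydrogenase genes are present. The set was chosen by measured values of these data, namely that Aldh1a1 was higher and Aldh1a3 lower after oncogene activation in wild-type cultures. Their changes in wild-type cultures are therefore given as a description, with no test.

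Bulk polyadenylated RNA was sequenced from primary mouse mammary organoids, which are clusters of mammary epithelium kept in three-dimensional culture. The wild-type (WT) organoids were compared with ATLD organoids, which carry the Mre11 allele ATLD1 on both chromosomes. Mre11 is the nuclease of the complex that senses DNA breaks and activates the kinase ATM, and the allele is named after an ataxia-telangiectasia-like disorder. Organoids of both genotypes were sampled on day 0, 14 or 28 after activation of neuT, a rat Erbb2 gene with an activating mutation, which encodes a growth factor receptor, with 3 original libraries in each of the 6 groups. Every later group carries active neuT, and no culture without it on day 14 or 28 was analysed here, so oncogene activation and time in culture cannot be told apart. The sources used here do not give how neuT was switched on, whether the libraries of a group came from separate animals, or what else the ATLD cultures differ in. The p-values therefore measure the spread between these samples only, which may be technical.

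Aldehyde dehydrogenases oxidise aldehydes to carboxylic acids with NAD or NADP as cofactor. Members of the ALDH1A class make retinoic acid from retinal, the last step from vitamin A to the ligand of the nuclear retinoic acid receptors. Others clear the aldehydes that arise from ethanol and from lipid peroxidation. In the mammary gland, high ALDH activity measured by a fluorescent substrate is used to enrich for stem and progenitor cells, and ALDH1A1 and ALDH1A3 are the members most often credited with it in human breast.

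Depth in this series ranged from 30905703 to 50879106 counts in the 9 original WT libraries and from 46331204 to 51757203 in the 9 ATLD libraries. The ATLD libraries were run with a repeat of WT replicate 1 from days 0, 14 and 28, and these 3 repeats hold 46532851 to 48887808 counts each. All original WT libraries belong to the first sequencing batch, so each comparison of the genotypes rests on these 3 runs to separate batch from genotype. On days 0 and 14 the repeat was nearer in its counts to replicate 2 than to replicate 1. In 3 WT libraries, replicates 1 and 3 of day 14 and replicate 2 of day 28, GC-rich genes read low. Mre11a itself was at 42.18 to 58.53 CPM (counts scaled to 1000000 per library) in WT and 14.05 to 17.04 CPM in ATLD libraries, so no library went against its genotype label. The epithelial marker Epcam was at 561 CPM or more in every library. Levels below are CPM scaled by trimmed means of M values over the 21 libraries. In bulk RNA, fewer cells of a type and less RNA per cell cannot be told apart.

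A pair of nearby members on chromosome 19 are copies of each other, and their start regions are shown because both genes changed in the same direction over time in these cultures. Aldh1a1 (ENSMUSG00000053279, chr19:20492715-20643465, plus strand, mm10) makes retinoic acid from retinal. Aldh1a7 (ENSMUSG00000024747, chr19:20692953-20727562, minus strand) is its rodent copy. The sequences below run from 250 bases before to 50 bases after the RefSeq start (GRCm38.p6), for Aldh1a1 chr19:20601718-20602017 on the plus strand and for Aldh1a7 chr19:20727507-20727806 on the minus strand. Aldh1a1 has a second RefSeq start upstream. Capitals mark CCAAT, searched on both strands.
Aldh1a1: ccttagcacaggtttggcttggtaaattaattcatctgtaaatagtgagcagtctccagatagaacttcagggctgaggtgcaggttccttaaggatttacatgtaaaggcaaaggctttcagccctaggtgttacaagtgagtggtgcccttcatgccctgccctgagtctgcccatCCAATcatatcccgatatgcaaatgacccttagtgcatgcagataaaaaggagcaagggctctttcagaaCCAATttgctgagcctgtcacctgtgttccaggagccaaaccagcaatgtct
Aldh1a7: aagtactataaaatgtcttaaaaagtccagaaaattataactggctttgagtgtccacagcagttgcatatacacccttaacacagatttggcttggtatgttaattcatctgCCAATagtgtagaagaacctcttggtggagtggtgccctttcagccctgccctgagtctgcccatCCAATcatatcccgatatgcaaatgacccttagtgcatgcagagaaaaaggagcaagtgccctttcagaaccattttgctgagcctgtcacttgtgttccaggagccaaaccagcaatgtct
The last 150 bases of both windows were identical at 142 positions, or 94.7%, and the longest identical run was 65 bases. Both hold CCAAT 72 bases before the start, which lies within that shared stretch, while the CCAAT at -2 was found in Aldh1a1 alone and that at -137 in Aldh1a7 alone. CCAAT on either strand is in 37.4% of the 32851 RefSeq promoters of that length, so its presence is a description of the sequence. Neither window held AGGTCA, the element bound by retinoic acid receptors, which 16.3% of the promoters hold, or GCGTG, the core of the aryl hydrocarbon receptor element, which 32.4% hold. RefSeq promoters were matched for 6 of the 9 genes.

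The annotated transcripts of both genes were 89.03% identical over 2042 aligned bases, and 7.49% of the 50-base words of Aldh1a7 also occur in Aldh1a1. At 100 bases this was 0.05%. Reads in shared words could be counted for either copy or dropped, and the aligner is not given in the sources used here. Aldh1a1 also overlaps 2 annotated genes on the opposite strand, C730002L08Rik and the pseudogene Gm6684. The libraries are stranded, but the strand setting of the counting is not given.

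In WT organoids, Aldh1a1 was at 18.2, 15.6 and 14.2 CPM in the 3 libraries of day 0. On day 14 it was at 105.1, 82.95 and 96.98 CPM, and on day 28 at 45.3, 54.4 and 45.3 CPM. All later libraries were above all day 0 libraries, and the day 28 libraries lay between the other days without overlap. The level was 5.94-fold higher on day 14 than on day 0 (log2 change 2.57 ± 0.15 SE, n = 3 per group) and 3.02-fold higher on day 28 (1.59 ± 0.15 SE). It was 1.97-fold lower on day 28 than on day 14 (-0.98 ± 0.15 SE), a comparison in which 0.905% of all genes tested were called. The resequenced runs of replicate 1 gave 15.4, 84.0 and 48.1 CPM on days 0, 14 and 28.

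Aldh1a3 (ENSMUSG00000015134, chr7:66390890-66427517, minus strand) is the second retinal dehydrogenase with high counts here. It was at 347.4, 383.4 and 376.6 CPM on day 0 in WT. On day 14 it was at 59.2, 62.0 and 62.9 CPM, and on day 28 at 87.2, 76.0 and 85.5 CPM. The order was the reverse of that of Aldh1a1, with day 0 highest, day 14 lowest and day 28 between them, again with no overlap. Aldh1a3 was 6.02-fold lower on day 14 than on day 0 (log2 change -2.59 ± 0.10 SE, n = 3 per group) and 4.45-fold lower on day 28 (-2.15 ± 0.10 SE). The resequenced runs gave 380.3, 68.5 and 88.4 CPM.

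In ATLD organoids, whose values the choice of the genes did not name, both genes went the other way. Earlier results of these data were known at that choice, so the ATLD tests are no independent check. Aldh1a1 was at 3.25, 3.20 and 3.43 CPM on day 0, at 0.621, 0.338 and 0.648 CPM on day 14 and at 0.364, 0.403 and 0.494 CPM on day 28. The later libraries held 15 to 28 counts each, against 142 to 156 on day 0, and did not overlap with them. It fell 6.14-fold by day 14 (log2 change -2.62 ± 0.19 SE, edgeR adjusted p = 2.01e-07, n = 3 per group) and 7.80-fold by day 28 (-2.96 ± 0.20 SE, edgeR adjusted p = 1.91e-08). Between day 14 and day 28 it did not pass the test (-0.35 ± 0.24 SE, edgeR adjusted p = 0.372), and the libraries of both days overlapped.

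Aldh1a3 was at 1019, 1027 and 1121 CPM on day 0 in ATLD, at 1418, 1574 and 1312 CPM on day 14 and at 1356, 1406 and 1354 CPM on day 28. Each later library was above each day 0 library. It rose 1.36-fold by day 14 (0.44 ± 0.09 SE, edgeR adjusted p = 0.00358, n = 3 per group) and 1.30-fold by day 28 (0.38 ± 0.09 SE, edgeR adjusted p = 0.00523). Day 28 against day 14 did not pass (-0.06 ± 0.09 SE, edgeR adjusted p = 0.697). The day 14 rise missed the threshold when the compared groups were fitted alone (edgeR adjusted p = 0.0522, the highest of 14 alternatives, the lowest being 8.01e-07).

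**Figure D1:**
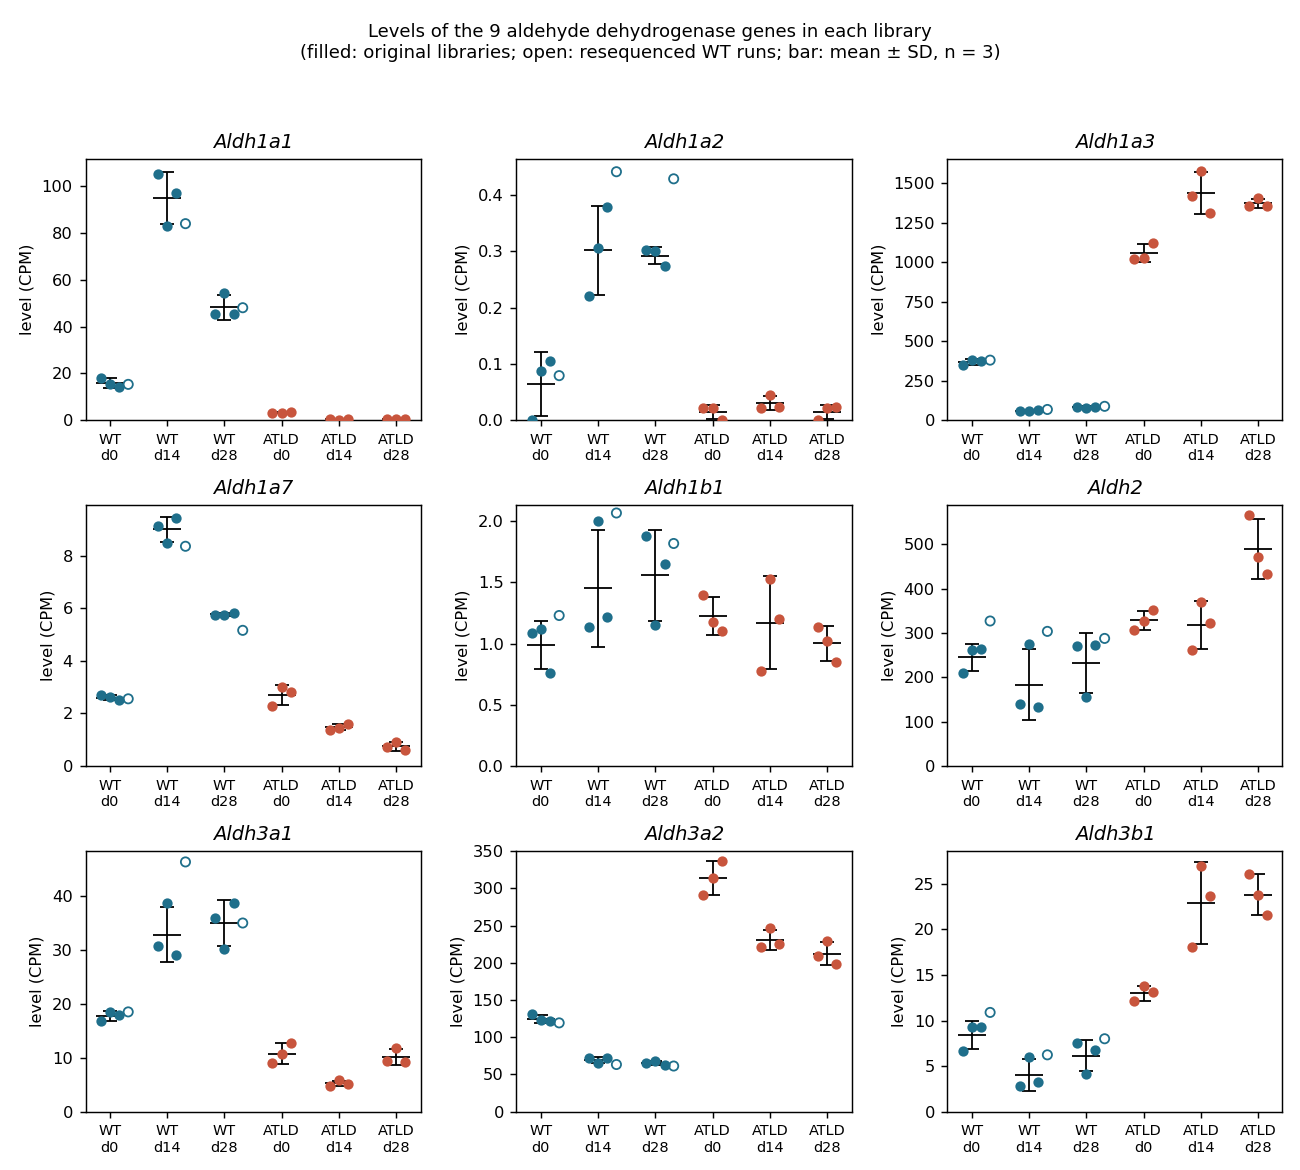
Level of each of the 9 genes in every library, in CPM on a linear axis that starts at 0, for WT (blue) and ATLD (red) organoids on days 0, 14 and 28; filled points are original libraries with mean and SD (n = 3), open points the resequenced WT runs. Aldh1a1 peaks at 82.95 to 105.1 CPM on WT day 14 and stays at or below 3.43 CPM in ATLD, while Aldh1a3 is at 59.2 to 383.4 CPM in WT and at 1019 CPM or more in ATLD.

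Against WT on the same day, the libraries of the genotypes did not overlap for either gene, on day 0 or later. The WT libraries in this comparison are those by which the genes were chosen, so for all 9 genes it is given as a description, without p. The fit includes a term for the sequencing batch. Aldh1a1 was 4.61-fold lower in ATLD on day 0 (log2 -2.20 ± 0.16 SE), 165-fold lower on day 14 (-7.36 ± 0.20 SE) and 110-fold lower on day 28 (-6.78 ± 0.20 SE). Within the second batch alone, with 1 resequenced WT library against 3 ATLD libraries a day, the log2 differences were -2.17, -7.225 and -6.79. Aldh1a3 was 2.70-fold higher on day 0 (1.43 ± 0.10 SE), 21.6-fold higher on day 14 (4.43 ± 0.11 SE) and 15.5-fold higher on day 28 (3.95 ± 0.11 SE). Within the second batch these were 1.52, 4.455 and 3.995.

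Of the 9 genes, 5 were past the threshold in ATLD against WT on day 0 (2 higher and 3 lower), where 55.6% of all 18844 genes tested were called, 26.1% higher and 29.5% lower. On day 14 it was 8 (3 higher and 5 lower) against 65.1%, of which 30.1% higher and 35.0% lower. On day 28 it was again 8 (3 higher and 5 lower) against 64.2%, of which 29.3% higher and 34.9% lower. Since the WT libraries chose the genes, and Aldh1a2 passed the filter through WT alone, nothing is read from these counts. In ATLD organoids over time, 6 of the 9 were called on day 14 (2 higher and 4 lower), where 11.7% of 18684 genes were called, 5.18% higher and 6.49% lower. On day 28 against day 0 it was 5 (2 higher and 3 lower) against 29.8%, of which 14.1% higher and 15.7% lower. On day 28 against day 14 it was 2 (1 higher and 1 lower) against 17.3%, of which 8.25% higher and 9.05% lower. The median log2 change of the 9 genes in ATLD on day 14 was -0.07, beside -0.03 over all genes tested. All 9 passed the filter on low counts, Aldh1a2 only through the later WT groups.

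**Figure D2:**
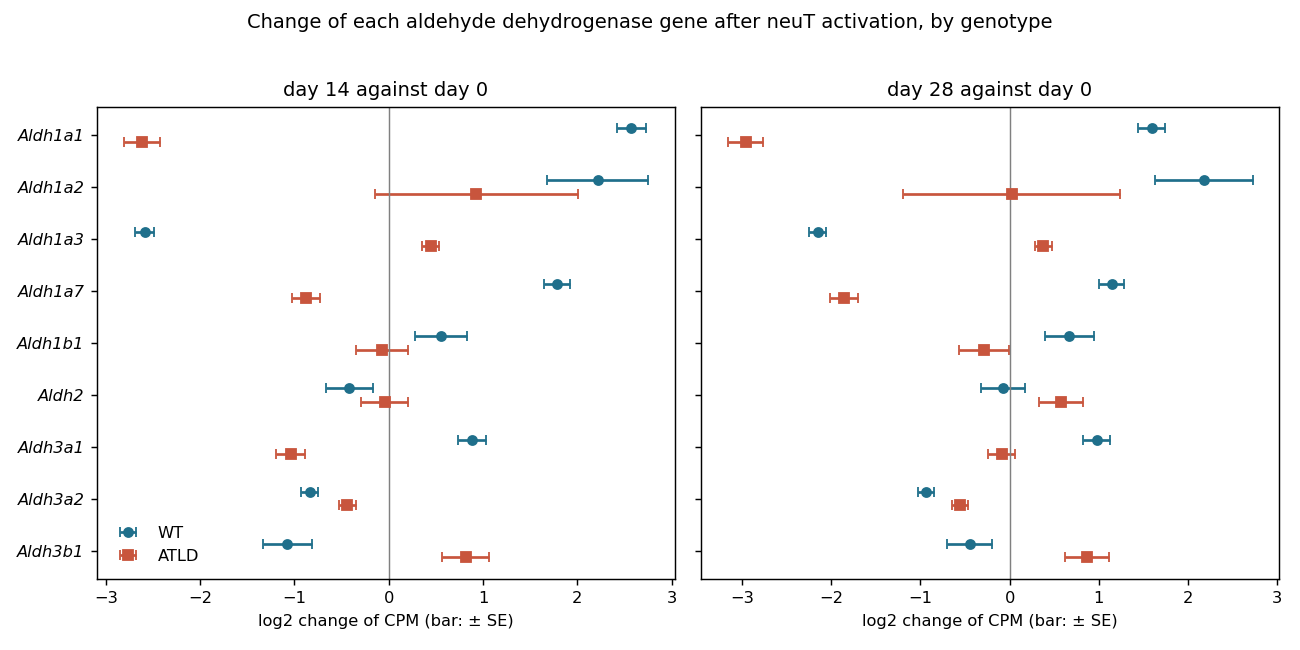
Log2 change of CPM against day 0 for each of the 9 genes, on day 14 (left) and day 28 (right), in WT (blue circles) and ATLD (red squares); bars are ± SE from the edgeR fit of 18 libraries. Aldh1a1 lies at 2.57 in WT and -2.62 in ATLD on day 14, and Aldh1a3 at -2.59 and 0.44.

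Aldh1a7 followed Aldh1a1 in direction, with smaller changes from day 0 in both genotypes. In WT it was at 2.71, 2.62 and 2.50 CPM on day 0, at 9.12, 8.48 and 9.42 CPM on day 14 and at 5.73, 5.75 and 5.82 CPM on day 28, with no overlap between the days. In ATLD it was at 2.28, 3.02 and 2.82 CPM on day 0, at 1.38, 1.44 and 1.61 CPM on day 14 and at 0.705, 0.912 and 0.611 CPM on day 28. These days did not overlap either, and day 28 was lowest. It fell by 0.88 ± 0.15 (SE) on the log2 scale by day 14 in ATLD (edgeR adjusted p = 0.000582, n = 3 per group) and by 1.85 ± 0.16 (SE) by day 28 (edgeR adjusted p = 1.61e-07). From day 14 to day 28 in ATLD it fell by 0.98 ± 0.16 (SE, edgeR adjusted p = 0.000499), where Aldh1a1 had changed by -0.35 ± 0.24 (SE), and the difference between both genes was not tested.

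On day 0, the log2 difference of Aldh1a7 between ATLD and WT was 0.13 ± 0.14 (SE), with overlapping libraries. On day 14 it was 5.69-fold lower in ATLD (-2.51 ± 0.15 SE) and on day 28 7.12-fold lower (-2.83 ± 0.16 SE), without overlap. The count of Aldh1a7 was 0.0868 to 0.176 times that of Aldh1a1 in the original WT libraries, 0.702 to 0.944 times on ATLD day 0 and 1.24 to 4.27 times in the later ATLD libraries. In the later ATLD libraries, where Aldh1a1 held 15 to 28 counts, the count of its copy was thus the larger one in all 6 libraries.

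Aldh1a2 (chr9:71215789-71296243, plus strand), the main retinal dehydrogenase of the mouse embryo, was near the limit of detection. The 3 WT day 0 libraries held 0, 3 and 5 counts, those of day 14 held 12, 13 and 18, and those of day 28 held 13, 11 and 13. No ATLD library held more than 2 counts. Since it passed the filter on low counts only through the later WT groups, no test between the genotypes is given. The gene overlaps the pseudogene Gm48124 on the opposite strand.

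The mitochondrial members were Aldh2, which clears acetaldehyde, and Aldh1b1, its intronless relative. Aldh2 (chr5:121566027-121593824, minus strand) was one of the most abundant of the 9 in every group. In WT it was at 210.1, 262.6 and 263.6 CPM on day 0, at 140.0, 275.9 and 134.2 CPM on day 14 and at 270.2, 154.6 and 273.0 CPM on day 28. The 3 lowest values belong to the 3 libraries in which GC-rich genes read low, and the resequenced runs of replicate 1 were at 327.1, 303.7 and 287.8 CPM. The WT day 14 change was -0.42 ± 0.25 (SE) on the log2 scale with those libraries and 0.13 ± 0.19 (SE) without them. The latter rests on 1 remaining WT day 14 library, which is assumed to vary like the other groups.

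In ATLD, Aldh2 was at 307.1, 326.1 and 351.5 CPM on day 0, at 262.2, 370.2 and 322.8 CPM on day 14 and at 565.6, 471.0 and 433.2 CPM on day 28. The day 28 libraries were above all others. The change from day 0 was 0.58 ± 0.25 (SE) on the log2 scale and missed the threshold (edgeR adjusted p = 0.0922, n = 3 per group). It passed in 4 of 14 alternatives, whose adjusted p ranged from 0.00317 to 0.265. Aldh1b1 (chr4:45799022-45804604, plus strand) was at 0.762 to 2.003 CPM in the original WT libraries and at 0.776 to 1.53 CPM in ATLD. It did not pass the test in any ATLD day comparison. Its log2 difference between ATLD and WT was -0.03 ± 0.29 (SE) on day 0, -0.70 ± 0.28 on day 14 and -0.96 ± 0.28 on day 28, and that of Aldh2 was -0.05 ± 0.27, 0.24 ± 0.27 and 0.63 ± 0.27.

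Aldh3a1 and Aldh3a2 lie next to each other on chromosome 11 and went in opposite directions in WT. Aldh3a1 (chr11:61207537-61218421, plus strand), a cytosolic enzyme known for its abundance in the cornea, was at 16.8, 18.6 and 17.9 CPM on WT day 0, at 30.8, 38.7 and 29.0 CPM on day 14 and at 35.9, 30.3 and 38.8 CPM on day 28. The later days were above day 0 in every library and overlapped each other. In ATLD it was at 8.99, 10.7 and 12.7 CPM on day 0, at 4.79, 5.81 and 5.16 CPM on day 14 and at 9.49, 11.8 and 9.17 CPM on day 28. It fell 2.05-fold by day 14 (log2 -1.04 ± 0.15 SE, edgeR adjusted p = 0.000197, n = 3 per group) and was higher again on day 28 than on day 14 (0.95 ± 0.15 SE, edgeR adjusted p = 0.000417). Day 28 did not pass against day 0 (-0.09 ± 0.15 SE, edgeR adjusted p = 0.702).

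Of the 9 genes, Aldh3a1 alone was called higher in ATLD on day 28 than on day 14, while Aldh2 (0.62 ± 0.25 SE, edgeR adjusted p = 0.1) passed there in 4 of 14 alternatives, with adjusted p from 0.00417 to 0.296. Aldh3a1 was lower in ATLD than in WT on day 0 (1.84-fold), day 14 (7.57-fold) and day 28 (3.83-fold), with log2 differences of -0.88 ± 0.17, -2.92 ± 0.17 and -1.94 ± 0.17 (SE). The second batch alone gave log2 differences of -0.73, -3.07 and -1.75 for these days.

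Aldh3a2 (chr11:61223417-61267464, minus strand) encodes fatty aldehyde dehydrogenase, the enzyme lacking in Sjögren-Larsson syndrome. In WT it was at 131.3, 122.6 and 121.3 CPM on day 0, at 72.3, 65.2 and 72.0 CPM on day 14 and at 65.3, 68.1 and 62.2 CPM on day 28. In ATLD it was at 290.5, 314.1 and 336.5 CPM on day 0, at 220.7, 246.6 and 225.3 CPM on day 14 and at 209.5, 229.7 and 198.1 CPM on day 28. Day 0 was highest in both genotypes, and every ATLD library was above every WT library. It fell by 0.44 ± 0.09 (SE) on the log2 scale by day 14 in ATLD (edgeR adjusted p = 0.00286, n = 3 per group) and by 0.56 ± 0.09 (SE) by day 28 (edgeR adjusted p = 0.000149). The WT log2 changes were -0.84 ± 0.09 (SE) and -0.94 ± 0.09 (SE).

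Aldh3a2 was 2.67-fold higher in ATLD than in WT on day 0, 3.56-fold on day 14 and 3.48-fold on day 28, with log2 differences of 1.42 ± 0.10, 1.83 ± 0.10 and 1.80 ± 0.10 (SE). The second batch alone gave log2 differences of 1.44, 1.93 and 1.83. It shared with Aldh1a3 the higher level in ATLD on all 3 days.

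Aldh3b1 (chr19:3913491-3929808, minus strand), which oxidises lipid-derived aldehydes at membranes, was at 6.67, 9.32 and 9.27 CPM on WT day 0, at 2.79, 5.98 and 3.24 CPM on day 14 and at 7.49, 4.19 and 6.77 CPM on day 28. As for Aldh2, the lowest library of day 28 and the 2 lowest of day 14 are those in which GC-rich genes read low. In ATLD it was at 12.1, 13.8 and 13.1 CPM on day 0, at 18.1, 27.0 and 23.6 CPM on day 14 and at 26.1, 23.8 and 21.6 CPM on day 28. Later ATLD libraries did not overlap with day 0. It rose by 0.87 ± 0.25 (SE) on the log2 scale by day 28 (edgeR adjusted p = 0.0129, n = 3 per group).

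The day 14 rise of Aldh3b1 in ATLD was 0.82 ± 0.25 (SE, edgeR adjusted p = 0.0393), and 6 of 14 alternatives lost the call, with adjusted p between 5.02e-05 and 0.161. Leaving out ATLD day 0 replicate 1, 2 or 3 gave an adjusted p of 0.133, 0.0787 and 0.0957, and leaving out ATLD day 14 replicate 2 or 3 gave 0.161 and 0.108. It was 4.02-fold higher in ATLD than in WT on day 14 (2.01 ± 0.27 SE on the log2 scale) and 2.84-fold higher on day 28 (1.51 ± 0.27 SE). On day 0 the log2 difference was 0.19 ± 0.27 (SE), and 0.62 in the original libraries without a batch term. Its promoter is the only one of the 6 available that holds AGGTCA, at -164 on the minus and -39 on the plus strand of the window.

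To compare genes with each other, CPM were divided by the exon length in kilobases. In WT on day 0, Aldh1a3 led with 80.0 CPM per kb, followed by Aldh2 with 47.9 and Aldh3a2 with 22.3, and Aldh1a1 stood sixth with 3.24. On day 14, Aldh2 led with 35.8 CPM per kb, Aldh1a1 was second with 19.2, and Aldh1a3, with 13.3, stood below Aldh3a1 with 16.9. On day 28, Aldh2 was at 45.4 CPM per kb, Aldh3a1 at 18.02, Aldh1a3 at 17.95, Aldh3a2 at 11.6 and Aldh1a1 at 9.79, and the libraries of Aldh3a1 and Aldh1a3 overlapped. As a share of the summed level per length of the 9 genes, Aldh1a3 went from 47.5% to 12.7% and 16.4% over the 3 WT days, and Aldh1a1 from 1.92% to 18.4% and 8.95%.

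In ATLD Aldh1a3 led on all 3 days with either length. It held 63.0%, 72.4% and 66.3% of the summed level per length on days 0, 14 and 28, and Aldh1a1 held 0.184%, 0.0253% and 0.0190%. Library by library, the level per length of Aldh1a3 was 20.5 to 28.4 times that of Aldh1a1 on WT day 0, 0.603 to 0.799 times on day 14 and 1.49 to 2.06 times on day 28. In ATLD it was 335 to 349 times on day 0, 2160 to 4980 times on day 14 and 2930 to 3980 times on day 28. The genes thus changed places on WT day 14 only, in all 3 original libraries and in the resequenced run, where the ratio was 0.872. With the length of the longest principal transcript, 2358 bases for Aldh1a1 and 3443 for Aldh1a3 in place of 4937 and 4617 bases of exons, the WT day 28 ratio was 0.956 to 1.32, so the order on that day depends on the length used. Other orders depend on it too. Aldh2 and Aldh3a2 on ATLD day 0 held 17.6% and 15.4% by exon length and 16.7% and 19.9% by principal transcript. By principal transcript, Aldh1a1 had rank 5 on WT day 0, and on WT day 14 rank 2 with a share of 26.1%. Aldh3a2 then had rank 3 on WT day 14 in place of 5, and Aldh3a1 rank 5 on WT day 28 in place of 2.

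**Figure D3:**
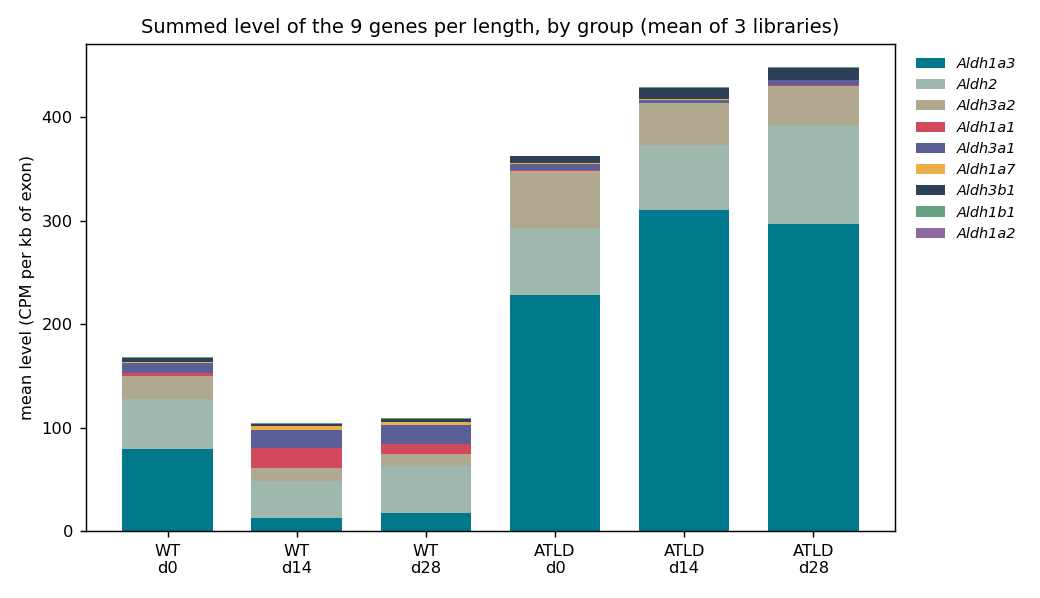
Stacked mean level per length of the 9 genes (CPM per kb of exon, mean of 3 original libraries) in each group. Aldh1a3 makes up 47.5% of the bar on WT day 0 and 12.7% on WT day 14, where Aldh1a1 reaches 18.4%; in ATLD Aldh1a3 makes up 63.0% to 72.4%.

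Among the 12 other aldehyde dehydrogenase genes, 10 passed the filter on low counts. In WT, 4 were higher and 1 lower on day 14, where 30.3% of all genes were called, and 2 were higher on day 28, against 24.7%. In ATLD, 0 of the 10 were called on day 14 (edgeR; 1 had an unadjusted p under 0.05), against 11.7% of all genes. On day 28 it was 2 higher and 2 lower, against 29.8%. Aldh5a1, which removes succinic semialdehyde, went from 19.8 ± 0.342 to 36.2 ± 0.814 and 34.5 ± 1.70 CPM (SD, n = 3) over the WT days and stayed between 15.3 and 16.5 CPM on average in ATLD. The difference between the genotypes in its change was tested and passed on day 14 (log2 -0.97 ± 0.14 SE, edgeR adjusted p = 4.98e-05) and day 28 (-0.79 ± 0.14 SE, edgeR adjusted p = 0.000312). Aldh1l2, a mitochondrial folate enzyme, rose in ATLD from 17.6 ± 1.48 to 48.0 ± 6.72 CPM (SD, n = 3) by day 28 (log2 1.45 ± 0.14 SE, edgeR adjusted p = 5.07e-07).

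The retinoid pathway feeds and reads the ALDH1A step. Retinol is taken up by Stra6, carried by Rbp7, oxidised to retinal by retinol dehydrogenases such as Rdh10 and reduced back by Dhrs3. The product, retinoic acid, is carried by Crabp2 or Fabp5 to its receptors and broken down by Cyp26 enzymes. Of all genes tested on day 14, 15.2% rose and 15.1% fell in WT, and 5.18% rose and 6.49% fell in ATLD. Among 8 tested genes of uptake and carriers, 2 rose and 3 fell in WT on day 14, while in ATLD 0 rose and 4 fell. Among 18 tested genes of retinol and retinal conversion it was 5 and 5 in WT and 2 and 3 in ATLD, and among 5 tested receptors 0 in WT and 1 lower in ATLD. In WT, 0 of the 5 receptors passed on day 14 or day 28 against day 0 (edgeR), with 1 at an unadjusted p under 0.05 on each day. The listed receptors summed to 228.7 and 233.6 CPM in the WT day 14 libraries low in GC-rich genes. In replicate 2 the sum was 453.6 CPM and in the resequenced run 517.8 CPM, so a change could be missed there.

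Stra6 went with Aldh1a1 after activation in both genotypes. It was at 0.163 ± 0.0896 CPM (SD, n = 3) on WT day 0, 13.8 ± 9.03 on day 14 and 3.07 ± 1.04 on day 28, and in ATLD at 7.13 ± 1.08, 0.365 ± 0.177 and 0.0801 ± 0.0634. It rose in WT by day 14 (log2 6.44 ± 0.55 SE, edgeR adjusted p = 7.28e-08) and fell in ATLD (-4.28 ± 0.49 SE, edgeR adjusted p = 1.48e-05). On day 0 it was higher in ATLD than in WT (5.04 ± 0.53 SE, edgeR adjusted p = 5.21e-07), where Aldh1a1 was lower. The retinol carrier Rbp7 fell in WT by day 14 from 28.3 ± 1.65 to 1.08 ± 0.280 CPM (SD, n = 3; log2 -4.71 ± 0.23 SE, edgeR adjusted p = 6.58e-11). In ATLD it fell less far, by 1.30 ± 0.19 (SE) on the log2 scale (edgeR adjusted p = 0.000184), and the difference between the genotypes was tested (3.41 ± 0.29 SE, edgeR adjusted p = 1.19e-07).

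Of the dehydrogenases, Adh7 fell in ATLD from 5.92 ± 0.422 to 1.18 ± 0.503 and 0.608 ± 0.0449 CPM (SD, n = 3; log2 -2.32 ± 0.22 SE on day 14, edgeR adjusted p = 1.56e-06). Dhrs3, which returns retinal to retinol, fell in WT by day 14 (-1.28 ± 0.14 SE, edgeR adjusted p = 1.5e-06). The 3 Cyp26 genes were all lower in ATLD than in WT on every day. Of all genes, 29.5%, 35.0% and 34.9% were called lower in ATLD on days 0, 14 and 28. Cyp26a1, whose product breaks down retinoic acid, was at 170.2 ± 4.99 CPM (SD, n = 3) on WT day 0 and 70.5 ± 5.49 on day 14, and at 21.5 ± 4.33 and 21.5 ± 3.01 in ATLD. Cyp26b1 rose in WT by day 14 (0.82 ± 0.20 SE, edgeR adjusted p = 0.00491) and fell in ATLD (-1.42 ± 0.27 SE, edgeR adjusted p = 0.0016).

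Of 13 tested genes that retinoic acid is known to induce, 4 rose and 6 fell in WT on day 14, and 1 rose and 5 fell in ATLD, beside 30.3% and 11.7% of all genes called, so the list did not move one way in WT. Stra6, Cyp26a1 and Cyp26b1 are on that list too. Tgm2, a transglutaminase, fell in WT by 2.37 ± 0.22 (SE) on the log2 scale by day 14 (edgeR adjusted p = 1.64e-07), as did Rarres1 by 1.57 ± 0.21 (SE, edgeR adjusted p = 1.24e-05), while Meis2, a homeodomain factor, rose by 2.91 ± 0.23 (SE, edgeR adjusted p = 2.05e-08). Retinoic acid itself was not measured. Aldh3a1 is a classic target of the aryl hydrocarbon receptor. Of 9 listed targets of that receptor 5 were tested, and all 5 rose in WT on day 14, where 15.2% of all genes rose. On WT day 28 it was 3 of 5, where 12.3% rose. The call of Nfe2l2 among these 3 was lost in each of the 6 fits that left out 1 library. In ATLD 1 of the 5 rose and 1 fell on day 14 and again on day 28. By day 14, Cyp1b1 rose by 1.26 ± 0.14 (SE) on the log2 scale in WT (edgeR adjusted p = 1.64e-06). In ATLD it fell by 0.89 ± 0.14 (SE, edgeR adjusted p = 0.000316). Nqo1 rose in both (0.62 ± 0.11 SE in WT, edgeR adjusted p = 0.000244, and 1.30 ± 0.11 SE in ATLD, edgeR adjusted p = 5.87e-07). Whether the receptor had a part in these changes was not tested.

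**Figure D4:**
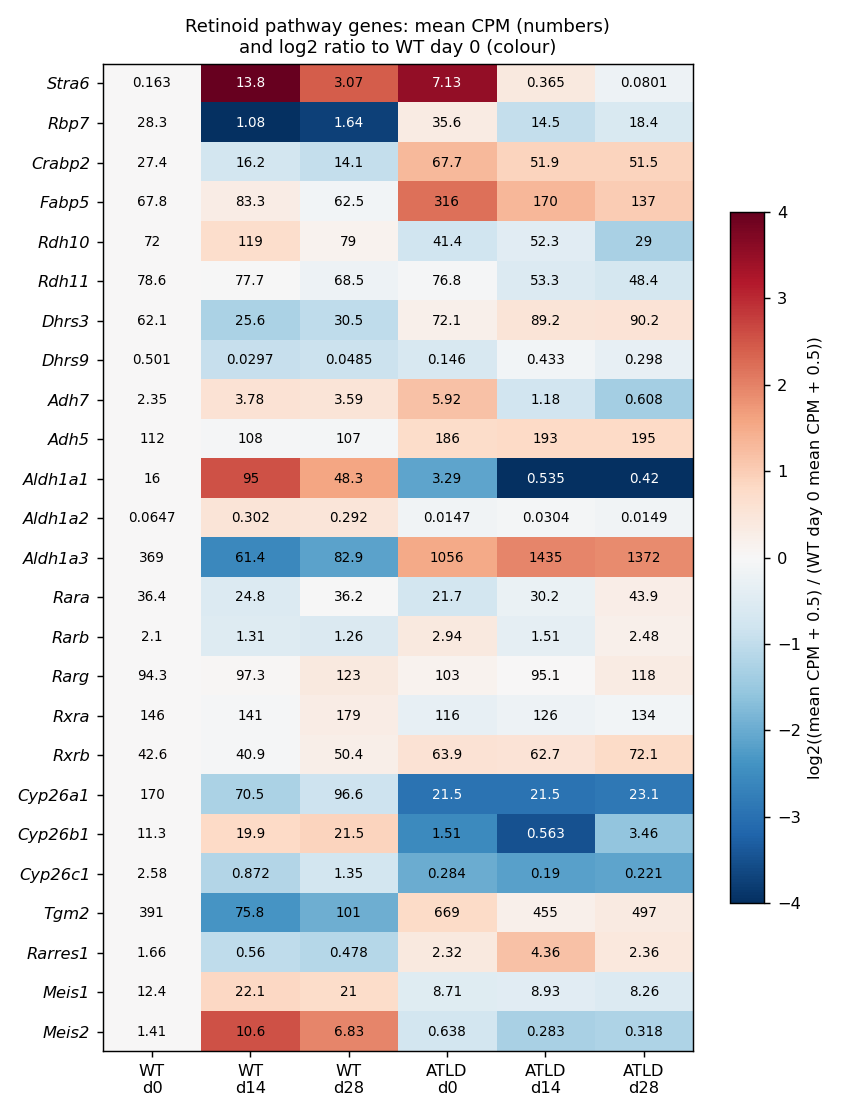
Mean CPM (numbers, 3 original libraries a group) of retinoid pathway genes from uptake (top) to targets (bottom), coloured by the log2 ratio to WT day 0 after adding 0.5 CPM; colours saturate at 4 and -4. Stra6 and Aldh1a1 are red on WT day 14 (13.8 and 95.01 CPM), while Aldh1a3, Tgm2 and Rbp7 are blue there and all 3 Cyp26 genes are blue in ATLD.

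Over the 18 original libraries and 11532 genes, the profiles nearest to Aldh1a1 by the root-mean-square difference of centred log2 levels were Sema3b (0.636), Cd109 (0.653), Fgb (0.667), Pi15 (0.700), Dsc3 (0.745) and Olfml2a (0.745). The profile of Aldh1a1 itself has an SD of 2.59 on that scale. The nearest to Aldh1a3 were Slain1 (0.240), Bcl11a (0.249), Fam169a (0.263), Hpse2 (0.283), Ogfrl1 (0.290) and Ano4 (0.324), beside an SD of 1.87. Bcl11a, a transcription factor, was at 9.50, 1.17 and 1.49 CPM on average on WT days 0, 14 and 28 and at 19.6, 28.7 and 24.2 CPM in ATLD. The neighbours of Aldh1a3 lay closer to it than those of Aldh1a1 did, as a description.

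Cell type markers changed over these days as well. The summed level of 14 luminal progenitor markers was 13750 to 14180 CPM on WT day 0, 738.8 to 986.0 on day 14 and 802.8 to 1141 on day 28, with 12 of 14 lower on both days, where 15.1% and 12.4% of all genes were lower. In ATLD the sum was 24150 to 29430, 22060 to 26360 and 44560 to 50510 CPM on days 0, 14 and 28. There 2 of the 14 rose and 4 fell on day 14, where 5.18% of all genes rose and 6.49% fell. On day 28 against day 0, 6 rose and 4 fell, where 14.1% of all genes rose and 15.7% fell. Like Aldh1a3, these sums were high on WT day 0 and in ATLD and low on the later WT days, and none of the 14 markers was at 0. From day 14 to day 28 in ATLD the sum rose without overlap, while the log2 change of Aldh1a3 was -0.06 ± 0.09 (SE). Of the 14 markers, 7 rose there, 1 fell and 6 were not called, beside 8.25% and 9.05% of all genes that rose and fell. Abundant genes weigh most in the sum: in ATLD Ltf, Lcn2 and Csn3 reached 12500, 13500 and 12500 CPM. Elf5 and Kit reached 704 and 526 CPM there. The summed level of 12 basal markers was 2368 to 3008 CPM on WT day 0 and 4096 to 9887 on day 14. Of the 12, 8 fell and 3 rose, where 15.1% of all genes fell and 15.2% rose. On WT day 14 it was 4239 and 4096 CPM in the libraries low in GC-rich genes, 9887 in replicate 2 and 9972 in the resequenced run. In ATLD the basal sum went from 3748 to 4111 down to 2545 to 2639. The 10 hormone-sensing markers summed to 473.0 to 786.0 CPM in WT and 136.9 to 224.5 CPM in ATLD. Lower in ATLD were 7 on day 0, 6 on day 14 and 7 on day 28, and higher were 1, 2 and 1. Of all genes, 29.5%, 35.0% and 34.9% were lower and 26.1%, 30.1% and 29.3% higher. Foxa1 was at 100 to 138 CPM in original WT libraries and 1.62 to 6.75 CPM in ATLD. The ranges of Prlr overlapped (22.3 to 208 and 32.2 to 83.5 CPM). Fibroblast markers summed to 1045 to 2715 CPM in original WT libraries and 549.0 to 1340 CPM in ATLD. Of the 9 tested, 7 were lower in ATLD on day 0, where 29.5% of all genes were lower. In original WT libraries Col1a1 was at most 2.93 CPM, Col3a1 0.617, Dcn 6.52 and Pdgfra 37.3, so most of the sum came from other genes of the list. The macrophage and leukocyte list summed to 132.5 to 167.9, 20.17 to 25.02 and 29.9 to 35.59 CPM over the WT days and to 279.7 to 885.2 CPM in ATLD. Most of that sum was Cd14, at 145.9 CPM on average on WT day 0 and 836.1 CPM on ATLD day 28, while Ptprc did not pass 0.164 CPM. Adipocyte markers summed to at most 1.249 CPM, of which Adrb3, chosen after its values were seen, held 0.899 CPM on average on WT day 14, up by 4.74 ± 0.53 (SE) on the log2 scale from day 0 (edgeR adjusted p = 3.73e-05). Endothelial markers summed to 3.399 to 9.141 CPM. The part of these cell types in the changes of Aldh1a1 and Aldh1a3 was not tested.

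The original WT libraries also held traces of the lung transcript Sftpc and of Lyz2, which lung and macrophages express. Sftpc was at 4.22 to 10.6 CPM there, 0.181 to 0.516 CPM in the resequenced runs and at most 0.149 CPM in ATLD, and Lyz2 was at 4.25 to 9.06, 0.0204 to 0.0401 and at most 0.0675 CPM. The 15 lung markers summed to 19.05 to 33.61 CPM in original WT libraries and 28.78 to 36.63 CPM in ATLD, but from different genes. In ATLD Cyp2f2 was at 10.9 to 20.4 CPM and Sftpd at 6.28 to 16.9 CPM. In original WT libraries they were at 1.47 to 3.35 and 0.211 to 2.23 CPM. Sftpa1 was at 0 in ATLD, Sftpb at most 0.0225 CPM and Scgb1a1 at most 0.0682 CPM. Among macrophage markers in the original WT libraries, Adgre1 was at most 0.0916 CPM and Csf1r at 0.0421 to 0.353 CPM. Aldh1a1, which lung expresses, was at 15.4, 84.0 and 48.1 CPM in the resequenced runs, and the part of lung transcripts in its level was not tested.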

How the data were processed

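Raw counts per gene, not normalized, were deposited by the authors for 21 libraries. Per the labels, RNA came from a miRNeasy kit and libraries from a TruSeq stranded mRNA kit. The submitters' processing notes name featureCounts, DESeq2 and mm10. Aligner, strand setting and annotation were not given in the sources used here, but all 55536 gene IDs matched GENCODE vM21.

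Genes with low counts were dropped (filterByExpr, minimum count 10, total 15). TMM scaling and two-sided quasi-likelihood tests were run in edgeR 4.0.16 (R 4.3.3, prior count 0.125), with Benjamini-Hochberg adjustment over all genes and a threshold of 0.05. The fit for days held the 18 original libraries and 18684 genes and left 12 residual degrees of freedom. The fit for genotypes held all 21 libraries, 18844 genes and a batch term and left 14. A resequenced run is no independent culture. The batch term passed for 0 of the 9 genes (edgeR; 2 had an unadjusted p under 0.05, Aldh2 with 0.0192 and Aldh3b1 with 0.0254). No pair of libraries of the same genotype and day agreed within sampling noise (chi-square per gene 3.07 to 262 over 27 pairs, resequenced runs included). The WT day 14 rerun stood at 262 from its own original and at 11.3 from replicate 2. For day 0 these were 62.9 and 18.2, while the day 28 rerun was nearest its own original (13.2, beside 18.3 for replicate 3).

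The 9 genes and all lists were chosen with earlier results of these data known. Of other lists, at most 4 called genes a comparison with the largest change and a mean log2 CPM of at least 0 could be named, and the 6 profiles nearest to Aldh1a1 and to Aldh1a3. Bcl11a was picked from these 6 after its values were seen. A gene counted in the retinoid lists is not reported here by name. In simulated data, 80% of 2-fold and 99% of 4-fold changes were recovered for ATLD day 14 against day 0 (17738 genes, 5.79% of calls false), and 79% and 96% for ATLD against WT on day 0 (17966 genes, 4.89% false). Each simulation changed 200 genes, none of low mean level, and held no GC bias. Far fewer genes changed there than were called in the data, so these rates need not hold for the tests above.

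The alternatives were other size factors, keeping low counts, DESeq2 1.42.0, fitting the compared groups alone, a replicate block, leaving out each replicate, resequenced runs for originals, dropping the batch term, the second batch alone, voom (limma 3.58.1) with culture as random block, and a GC offset. After seeing the data, a fit without the 3 libraries low in GC-rich genes (slope under -4 log2 units per unit of GC fraction) and principal transcript lengths were added.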

Additional observations from a re-analysis of the deposited data

Results flagged for a closer look

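The ATLD change minus the WT change is given here on the log2 scale. For 5 genes on day 14, every WT library moved one way from day 0 and every ATLD library the other: Aldh1a1 (-5.19), Aldh1a3 (3.03), Aldh1a7 (-2.66), Aldh3a1 (-1.92) and Aldh3b1 (1.89). On day 28 this held for Aldh1a1 (-4.56), Aldh1a3 (2.53) and Aldh1a7 (-3.00). Of all 18684 genes tested, 7.20% met this on day 14 and 10.9% on day 28. The differences of the members were not tested, because the WT changes were used to choose the genes. For the same reason nothing is read from the members beside these shares. Without the 3 libraries low in GC-rich genes, which leaves 1 WT day 14 library, the day 14 difference of Aldh3b1 was 1.36. That of Aldh1a1 was then -4.93, that of Aldh1a7 -2.52 and that of Aldh3a1 -2.10.

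Among the other aldehyde dehydrogenase genes the difference was tested in edgeR. On day 14 it passed for Aldh5a1 (-0.97, adjusted p = 4.98e-05) and Aldh9a1 (-0.43, adjusted p = 0.0219), and on day 28 for Aldh1l2 (0.63, adjusted p = 0.0193), Aldh5a1 (-0.79, adjusted p = 0.000312) and Aldh9a1 (-0.83, adjusted p = 8.31e-05). With 3 libraries a group, single libraries that stand apart were not searched for.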

How the results depend on the processing

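Counts of called members stayed within 1.5 times of the values above under each alternative run, and Aldh1a1, Aldh1a7, Aldh3a1 and Aldh3a2 lost no call in ATLD over time. With a GC offset, the WT day 14 change of Aldh1a3 was -2.51, and 3518 genes in place of 2180 were called in ATLD on day 14 and 4943 in place of 3232 on day 28 against day 14. Without the 3 libraries low in GC-rich genes, which leaves 1 WT day 14 library, the WT day 14 change of Aldh1a1 was 2.34. Same-numbered libraries of the same genotype correlated from -0.96 to 0.82, with 4 of 18 pairs over 0.1. Across the genotypes it was 12 of 27 pairs. In WT the libraries low in GC-rich genes enter these correlations, so they cannot show whether the numbers pair the samples. A replicate block left 1975 genes called in ATLD on day 28 against day 14, and Aldh3b1 on ATLD day 14 (adjusted p = 0.105, edgeR) was not called.

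Signs reversed for members that were not called. In ATLD against WT on day 0, Aldh1b1 was 0.038 with a GC offset, 0.31 in the original libraries without a batch term, 0.039 in the second batch alone and 0.13 without the 3 libraries, and Aldh2 was 0.003, 0.42, 0.052 and 0.15 in the same order. Aldh3b1 in ATLD on day 28 against day 14 was -0.09 with a GC offset. Leaving out each replicate, genes called in ATLD against WT on day 0 ranged from 6927 (without WT replicate 1) to 10784. On that day Aldh1b1 ranged from -0.138 to 0.044 and Aldh3b1 from -0.029 to 0.235. In ATLD on day 14 Aldh1b1 ranged from -0.314 to 0.157 and Aldh2 from -0.167 to 0.077, and on day 28 Aldh1a2 from -0.483 to 0.523 and Aldh3a1 from -0.21 to 0.045. On day 28 against day 14 Aldh1a3 ranged from -0.126 to 0.007, Aldh1b1 from -0.447 to 0.024 and Aldh3b1 from -0.087 to 0.19. The cause was not tested. Depth limits Aldh1a2 above all, with 0 to 18 counts in an original library.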
